A study of Mus musculus with 12 samples.

Results

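The core circadian clock genes are the transcription factors and repressors that keep a daily rhythm of transcription in nearly every cell. The set was fixed by name as Arntl (also called Bmal1), Clock, Per1, Per2, Per3, Cry1, Cry2, Nr1d1, Nr1d2 and Dbp. All 10 were found among the 19547 genes of the deposited table, and all 10 passed the filter on low counts that left 18551 genes for testing. RNA came from fat grafts of wild type C57BL/6 mice aged 16 weeks, taken at 8 weeks of grafting, with 4 libraries in each of 3 groups. The control group held fat grafts alone. The CAL group (cell-assisted lipotransfer) held grafts to which ASC (adipose-derived stem or stromal cells) had been added. The CAL_Dll4i group held such grafts with inhibition of Dll4, an endothelial Notch ligand. The agent that inhibited Dll4, its dose, the hour of collection, the sex of the mice and whether each library came from its own animal are not given in the sources used here, so the p-values rest on the spread among these libraries, part of which may be technical.

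In mammals ARNTL pairs with CLOCK or NPAS2 and switches on the Per, Cry and Nr1d genes and Dbp through E-box sequences. PER and CRY proteins then block that pair, and NR1D1 and NR1D2 (the REV-ERB receptors) repress Arntl and Npas2 through sites called ROREs, which closes the cycle. In mouse fat, as in liver, Arntl and Npas2 RNA peak around the end of the night, Nr1d1, Nr1d2 and Dbp during the day, the Per genes around dusk and Cry1 at night, while Clock RNA changes little over the day. Dbp, a transcription factor that binds D-box sequences, carries the rhythm to metabolic genes. Tissue taken at different hours therefore differs in these genes in a known order, and the labels do not record the hour.

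Sequence around the start sites was searched for the letters through which these genes are known to be linked, and only some of the genes held them. RefSeq windows (GRCm38.p6) of 300 bases, from 250 before to 50 after each start, were found for 9 of the 10 genes (13 windows), all but Per2. They were searched on both strands for the E-box CACGTG, the E'-box CACGTT, the D-box TTATGNAA, the RORE (AANTN followed by GGTCA) and the CRE (cAMP response element) TGACGTCA. E-box and E'-box differ in only their last letter, so no run of letters is counted as both, and no match in a clock gene overlapped another. The E-box was in 7.15% of all 32851 windows, the E'-box in 4.68%, the D-box in 3.39%, the RORE in 0.606% and the CRE in 1.79%. Counted by gene, with a match in any window, the E-box was found for 2187 of 27025 genes and the E'-box for 1470. The D-box was found for 1079, the RORE for 193 and the CRE for 549. Among the clock genes the E-box was found for Cry1 and Per1, the E'-box for Cry1, Cry2 and Nr1d1, the D-box for Per1 and Per3, the RORE for Arntl, and the CRE for 0 of the 9. No match of any kind was found in the windows of Clock, Nr1d2 and Dbp. The 6 stretches below were chosen to show the 4 kinds of motif found, in 4 targets of ARNTL and in Arntl itself. They run 5′ to 3′ on the gene's own strand, and only the match named for each is in capitals. The Cry1 stretch also holds the E'-box match of that gene (reverse complement), left in lower case.
Per1 E-box, chr11:69098756-69098815, plus strand, before the start: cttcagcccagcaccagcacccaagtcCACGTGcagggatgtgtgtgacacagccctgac
Per1 D-box, chr11:69098914-69098943, plus strand, before the start: agggcctggcaTTATGCAAcccgcctccca
Cry1 E-box, chr10:85185082-85185141, minus strand, before the start: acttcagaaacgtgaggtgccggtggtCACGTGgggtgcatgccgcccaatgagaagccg
Nr1d1 E'-box (reverse complement), chr11:98775388-98775417, minus strand, before the start: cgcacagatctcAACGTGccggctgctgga
Per3 D-box, chr4:151044837-151044896, minus strand, before the start: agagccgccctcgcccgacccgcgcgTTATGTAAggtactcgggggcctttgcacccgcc
Arntl RORE, chr7:113207528-113207557, plus strand, in the first bases after a start: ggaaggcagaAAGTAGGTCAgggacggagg
A match is a run of letters and not a measured binding site, and a window without one says only that these letters are not in it.

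Library totals ran from 55883051 to 70804141 counts, and the biological coefficient of variation over all genes was 0.237. Dll4 itself, whose inhibition need not lower its RNA, stood at a log2 fold change of 0.25 ± 0.14 in CAL_Dll4i against CAL (edgeR adjusted p 0.71). All 12 adipocyte markers were detected, with a summed level of 956 to 2105 CPM (read counts scaled to a common library size with TMM factors) in control, 2152 to 3149 in CAL and 1599 to 2114 in CAL_Dll4i. Skeletal muscle markers (5 of 12 in the table) summed to over 100 CPM in CAL replicates 1 and 2 and CAL_Dll4i replicate 3, at 109, 225 and 396 CPM, against 2.49 to 11.6 CPM in the other 9 libraries. Keratinocyte markers (5 of 8 in the table) summed to 476 CPM in CAL_Dll4i replicate 1 and 249 CPM in control replicate 4, the highest values, and ran from 4.46 to 216 CPM elsewhere. In bulk tissue, fewer cells of a type and less RNA per cell cannot be told apart.

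Per length, Clock was the most abundant of the 10 transcripts and Dbp the least. Mean FPKM over 12 libraries (± SD) was 13.7 ± 1.14 for Clock, 12.9 ± 2.18 for Nr1d2 and 10.6 ± 1.89 for Arntl, and the step from Clock to Nr1d2 was smaller than the SD of either. Nr1d1 followed at 7.79 ± 3.02 FPKM, Per1 at 6.63 ± 1.38, Cry1 at 6.15 ± 0.854, Per3 at 4.14 ± 0.866, Cry2 at 3.77 ± 0.577, Per2 at 2.70 ± 0.676 and Dbp at 2.40 ± 0.838. From Nr1d1 to Cry1, from Per3 to Cry2 and from Per2 to Dbp, each step down the order was smaller than the SD of the genes on either side of it. The fewest counts behind any value were 185, for Dbp in control replicate 1.

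The activators Arntl and Clock differed in how steady they were. Arntl, on chromosome 7 (113178471 to 113314126), stood at 43.6, 49.5, 40.4 and 29.6 CPM in control replicates 1 to 4, at 43.9, 35.7, 44.9 and 37.2 CPM in CAL, and at 26.4, 33.1, 43.1 and 32.4 CPM in CAL_Dll4i. The groups overlapped, and the 2 lowest libraries, CAL_Dll4i replicate 1 and control replicate 4, came from different groups. Clock, the partner of ARNTL, on chromosome 5 (76209868 to 76305603), stood at 178, 178, 190 and 161 CPM in control, at 154, 166, 180 and 179 CPM in CAL, and at 151, 175, 171 and 183 CPM in CAL_Dll4i. Its highest library was only 1.26-fold above its lowest, against 1.88-fold for Arntl, and its 2 lowest libraries were CAL_Dll4i replicate 1 and CAL replicate 1.

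The Period genes, whose proteins block ARNTL and CLOCK, had their highest levels in CAL or CAL_Dll4i libraries. Per1, on chromosome 11 (69095108 to 69109965), stood at 34.8, 31.0, 47.3 and 45.7 CPM in control, at 35.1, 34.2, 36.9 and 34.3 CPM in CAL, and at 54.8, 45.3, 37.3 and 61.1 CPM in CAL_Dll4i. The 4 CAL libraries lay close together, and in CPM all 4 CAL_Dll4i libraries were above them, as for 1.58% of all genes. The margin was small, and in the deposited FPKM the groups overlapped, with CAL_Dll4i replicate 3 at 5.77 FPKM and CAL replicate 3 at 5.84 FPKM. Per2, on chromosome 1 (91415977 to 91459351), stood at 15.8, 13.3, 16.0 and 17.5 CPM in control, at 16.2, 31.9, 21.2 and 17.7 CPM in CAL, and at 21.9, 26.2, 19.3 and 24.7 CPM in CAL_Dll4i. Every CAL_Dll4i library was above every control library, as for 2.41% of all genes. The single highest value was in CAL replicate 2, a library with muscle RNA. Per3, on chromosome 4 (150997018 to 151044707), stood at 24.0, 17.1, 26.1 and 34.4 CPM in control, at 30.2, 34.4, 24.0 and 32.8 CPM in CAL, and at 33.0, 37.0, 30.0 and 29.8 CPM in CAL_Dll4i. Control replicate 2 was lowest for all 3 Period genes and control replicate 4 was above the other controls for Per2 and Per3.

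The cryptochromes Cry1 and Cry2 act with the PER proteins as repressors. Cry1, on chromosome 10 (85131700 to 85185054), stood at 24.1, 22.0, 18.0 and 22.8 CPM in control, at 24.0, 31.2, 28.3 and 21.9 CPM in CAL, and at 22.7, 21.5, 25.9 and 22.1 CPM in CAL_Dll4i. The 2 highest Cry1 libraries were CAL replicates 2 and 3. Cry2, on chromosome 2 (92403646 to 92434085), stood at 15.7, 13.7, 14.8 and 16.7 CPM in control, at 19.1, 18.1, 18.1 and 18.0 CPM in CAL, and at 18.5, 19.2, 16.5 and 14.1 CPM in CAL_Dll4i. In CPM the Cry2 levels of CAL lay above those of control, as for 3.61% of all genes, and the CAL_Dll4i libraries reached into the ranges of both. In the deposited FPKM the Cry2 groups overlapped, with CAL replicate 2 at 3.58 FPKM below control replicate 3 at 3.88 FPKM.

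Nr1d1 and Dbp varied most between libraries of the same group, with the second REV-ERB receptor, Nr1d2, steadier. Nr1d1, on chromosome 11 (98767932 to 98775377), stood at 22.9, 27.7, 33.1 and 40.8 CPM in control, at 17.7, 12.8, 17.0 and 37.6 CPM in CAL, and at 46.1, 32.0, 22.3 and 18.8 CPM in CAL_Dll4i. Its highest library was 3.60-fold above its lowest, the widest range of the 10 genes, and CAL replicates 1 to 3 held the 3 lowest values, 2 of them in libraries with muscle RNA. Nr1d2, on chromosome 14 (18204056 to 18239106), stood at 70.1, 66.3, 79.9 and 98.5 CPM in control, at 59.6, 66.4, 60.8 and 80.6 CPM in CAL, and at 95.9, 84.8, 70.0 and 81.8 CPM in CAL_Dll4i. Dbp, on chromosome 7 (45705100 to 45710203), stood at 3.13, 3.11, 3.57 and 7.80 CPM in control, at 5.37, 4.00, 3.22 and 5.41 CPM in CAL, and at 7.76, 5.84, 4.33 and 4.50 CPM in CAL_Dll4i. For Nr1d2 and Dbp the 2 highest libraries were control replicate 4 and CAL_Dll4i replicate 1, the same 2 that were lowest for Arntl. Positions are on GRCm38.p6, the assembly of mm10. Parts of these genes overlap others, 14.4% of Nr1d1 with Thra, 14.5% of Dbp with Sphk2 and 76.9% of Cry2 with the noncoding gene D930015M05Rik, and since no source used here says that strand was used in counting, reads from the shared parts cannot be told apart.

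**Figure D1:**
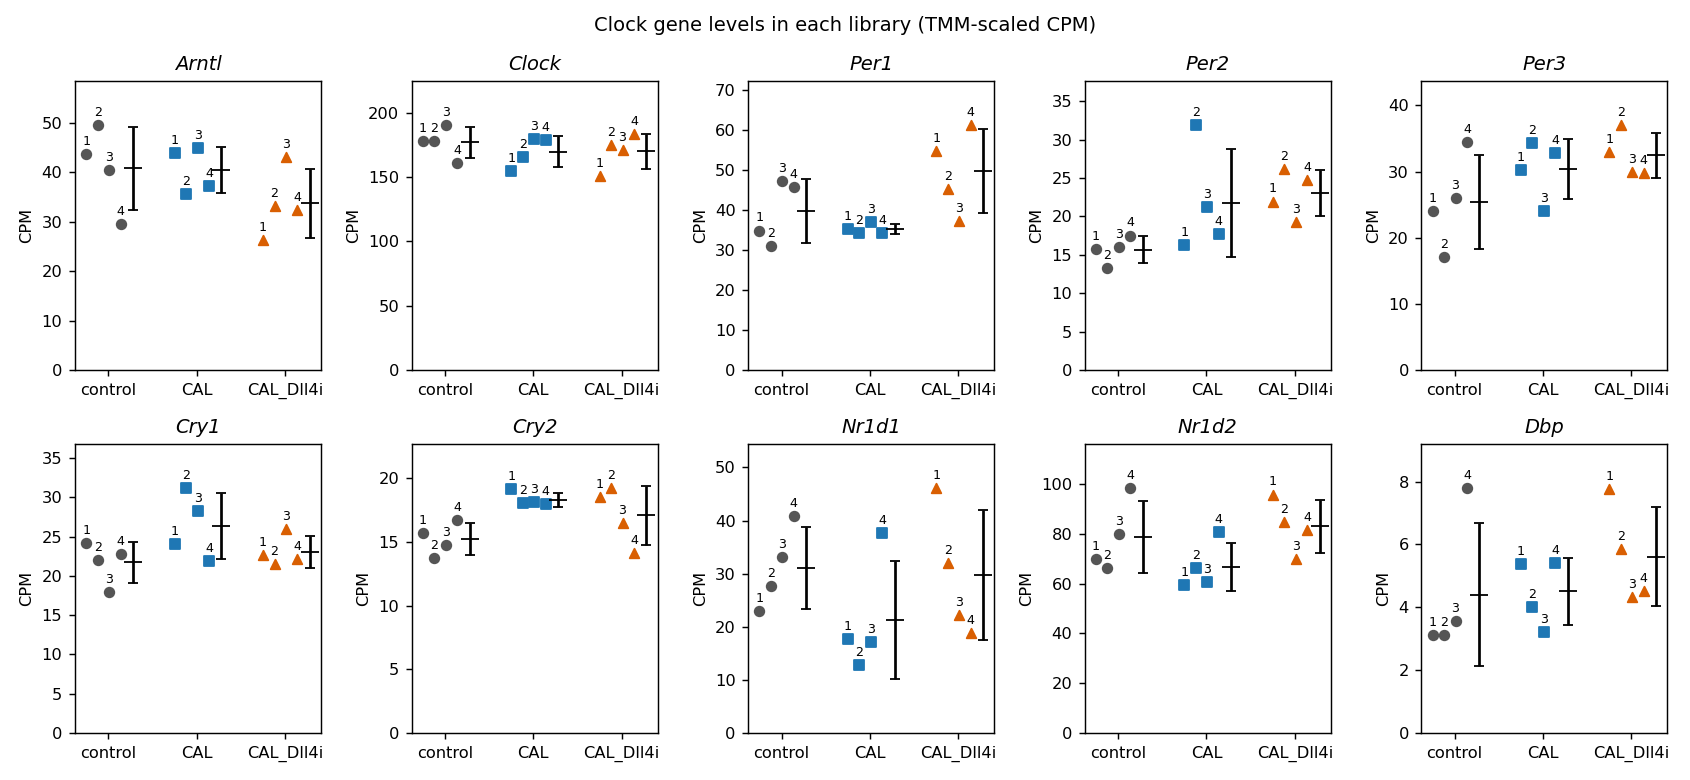
Level of each of the 10 clock genes in each library, in TMM-scaled CPM on a linear axis that starts at 0. Points are libraries with their replicate number, and the bar beside each group is its mean ± SD over 4 libraries. Groups overlap for most genes, and for Dbp control replicate 4 and CAL_Dll4i replicate 1 stand near 7.8 CPM above the rest.

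CAL was compared with control to ask how added cells changed the graft. No clock gene changed between CAL and control at an adjusted p under 0.05 (edgeR quasi-likelihood test, Benjamini-Hochberg over all genes tested), a threshold that 0.00539% of the tested genes passed (1 gene, Vsig8, named after its value was seen). DESeq2 passed 3.61% of genes and voom 0.388%, and neither passed a clock gene. Cry2 had a log2 fold change of 0.27 ± 0.10 (SE), 18.3 ± 0.541 CPM in CAL and 15.2 ± 1.27 CPM in control (SD, n = 4 each), with an unadjusted p of 0.019 and an edgeR adjusted p of 0.26. Its groups did not overlap in CPM, with CAL higher, as for 3.61% of all genes tested, but overlapped in the deposited FPKM. No clock gene had CAL wholly below control, as 3.75% of all genes did. Per2 stood at 0.47 ± 0.19 (adjusted p 0.29) and Cry1 at 0.28 ± 0.12 (adjusted p 0.32), with overlapping groups. Without the 3 libraries with muscle RNA, Per2 stood at 0.31 ± 0.13 with an edgeR adjusted p of 0.50. In all, 3 of 10 clock genes had an unadjusted p under 0.05 with CAL higher and 0 with CAL lower, where 7.01% and 7.57% of all genes did. The estimates split into 5 higher (50% against 48.4% of all genes) and 5 lower, with a median log2 fold change of 0.01 against -0.01 over all genes tested. The 95% interval was narrow for Clock (-0.22 to 0.10) and wide for Nr1d1 (-1.36 to 0.26) and Dbp (-0.66 to 0.72). Adipocyte markers had higher estimates in CAL for 12 of 12 genes (10 at an unadjusted p under 0.05, 0 adjusted). For 4 of the 12, CAL lay wholly above control, as for 3.61% of all genes. With the adipocyte marker level as a covariate no gene of any kind passed. No clock gene had passed without it, so this cannot show the part of adipocyte RNA in the clock gene values. Neutrophil markers had lower estimates in CAL for 8 of 8 genes (4 at an unadjusted p under 0.05, 0 adjusted), at 116 to 237 CPM against 227 to 427 CPM in control, and their part in the clock gene values was not tested. Nr1d1 had the lowest estimate, -0.55 ± 0.37 (adjusted p 0.52), and stood at -0.19 ± 0.43 without the 3 libraries with muscle RNA (edgeR adjusted p 0.93).

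CAL_Dll4i was compared with CAL to ask what Dll4 inhibition added. No clock gene passed edgeR's adjusted threshold, and 0% of all genes tested did. DESeq2 passed 0.00540% (1 gene) and voom 0%, while 1377 genes had an unadjusted p under 0.05. Per1 had a log2 fold change of 0.50 ± 0.16, 49.6 ± 10.5 CPM in CAL_Dll4i and 35.1 ± 1.23 CPM in CAL (SD, n = 4 each), with an unadjusted p of 0.0091 and an edgeR adjusted p of 0.66. Its groups did not overlap in CPM, with CAL_Dll4i higher, as for 1.58% of all genes, but overlapped in the deposited FPKM. In CPM 0 clock genes lay wholly lower, as 1.76% of all genes did. Nr1d2 stood at 0.31 ± 0.14 (edgeR adjusted p 0.67) with overlapping groups. Adipocyte markers had lower estimates in CAL_Dll4i for 12 of 12 genes (2 at an unadjusted p under 0.05, 0 adjusted). For 6 of the 12, CAL_Dll4i lay wholly below CAL, as for 1.76% of all genes. With the adipocyte level as a covariate no gene of any kind passed, as without it, and Per2 stood at -0.02 ± 0.21. Keratinocyte markers had higher estimates in CAL_Dll4i for 4 of 5 genes, none past the adjusted threshold, and summed to 4.49 to 476 CPM against 5.25 to 77.3 CPM in CAL. With their level as a covariate Per1 stood at 0.35 ± 0.16 and Nr1d2 at 0.22 ± 0.15. Neutrophil markers had higher estimates for 7 of 8 genes (3 at an unadjusted p under 0.05, 0 adjusted), at 227 to 311 CPM against 116 to 237 CPM, and their part in these values was not tested. The clock genes split into 7 higher and 3 lower estimates, with 51.3% of all genes higher, and their median log2 fold change was 0.09 against 0.00 over all genes. At an unadjusted p under 0.05, 2 of 10 were higher and 0 lower, where 4.47% and 2.95% of all genes were. The interval of Arntl ran from -0.63 to 0.11 around an estimate of -0.26.

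CAL_Dll4i was also set against control, which shares its libraries with both comparisons above. No clock gene passed edgeR's adjusted threshold, and again 0% of all genes tested did. DESeq2 passed 0.350% (61 genes) and voom 0%, while 1284 genes had an unadjusted p under 0.05. Per2 had a log2 fold change of 0.56 ± 0.19, 23.0 ± 3.04 CPM in CAL_Dll4i and 15.7 ± 1.74 CPM in control (SD, n = 4 each), with an unadjusted p of 0.013 and an edgeR adjusted p of 0.71. The groups did not overlap, with CAL_Dll4i higher, as for 2.41% of all genes, and 0 clock genes lay wholly lower, as 2.35% of all genes did. Per3 stood at 0.35 ± 0.18, Dbp at 0.35 ± 0.32 and Per1 at 0.32 ± 0.16, with edgeR adjusted p of 0.72, 0.83 and 0.72. Estimates were higher for 7 of the 10, with 49.6% of all genes higher, and lower for Arntl (-0.27 ± 0.17), Clock (-0.06 ± 0.07) and Nr1d1 (-0.06 ± 0.36). Per2 alone had an unadjusted p under 0.05, with CAL_Dll4i higher, where 3.86% of all genes did and 3.06% had CAL_Dll4i lower. The median log2 fold change of the 10 was 0.13 against 0.00 over all genes. A joint test of any difference among the 3 groups gave an unadjusted p under 0.05 for Per1 (0.026) and Per2 (0.029), with 10.7% of all genes under it, and an adjusted p no lower than 0.42 for any clock gene, with 0.00539% of all genes passing.

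**Figure D2:**
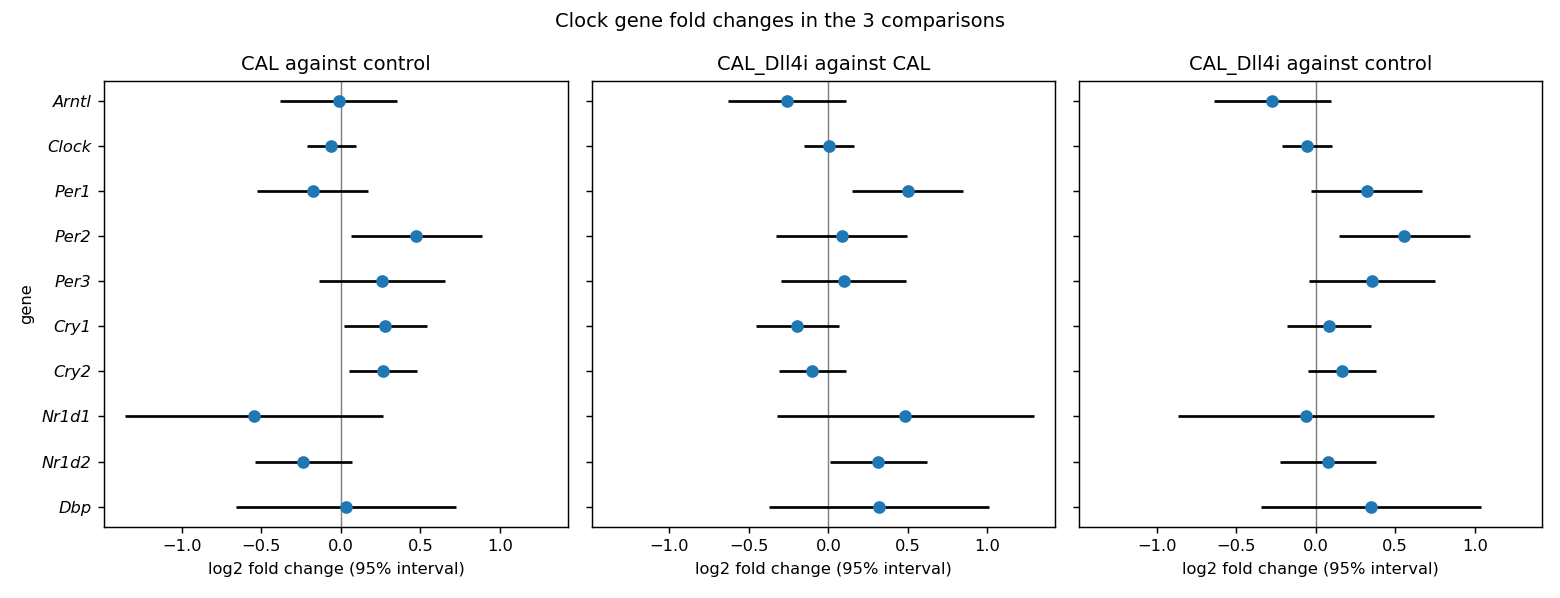
Log2 fold change of each clock gene in the 3 comparisons, with points for edgeR's estimate and lines for its 95% interval over 12 libraries. Intervals of Cry2, Cry1 and Per2 (CAL against control), Per1 and Nr1d2 (CAL_Dll4i against CAL) and Per2 (CAL_Dll4i against control) miss 0, and after adjustment over all genes no clock gene passed.

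Within groups, several clock genes varied more than most genes. The SD of log2 CPM around group means was 0.55 for Nr1d1, above 87.5% of all genes tested, and 0.48 for Dbp, above 83.4%. It was 0.29 for Per2 and Per3, 0.27 for Arntl, 0.25 for Per1 and 0.22 for Nr1d2. Cry1, Cry2 and Clock were steadier at 0.18, 0.14 and 0.11, with Clock above only 26.1% of genes. The median of the 10 was 0.26 against 0.18 over all genes. Genes differ in spread with their abundance, and against edgeR's trend of dispersion on abundance 3 of the 10 (Nr1d1, Nr1d2 and Dbp, or 30%) lay above it, where 18.0% of all genes did.

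The library-to-library differences had opposite signs for Arntl and several of its known targets. Over 12 libraries Arntl and Nr1d2 had Pearson r = -0.85 (permutation p = 0.00051, adjusted over 45 pairs of clock genes 0.0229) and Spearman rho = -0.88 (permutation p = 0.00033, adjusted 0.0148). Arntl and Dbp had r = -0.82 (permutation p = 0.00115, adjusted 0.0259) and rho = -0.79 (permutation p = 0.00327, adjusted 0.049). Arntl was high where these day-phase genes were low, and the reverse.

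Arntl also ran against Per1, at r = -0.75 (permutation p = 0.00457, adjusted 0.0343) and rho = -0.64 (permutation p = 0.0275, adjusted 0.147), and against Per3, at r = -0.74 (permutation p = 0.00441, adjusted 0.0343) and rho = -0.76 (permutation p = 0.00633, adjusted 0.057). Positive pairs past the threshold were Nr1d1 with Nr1d2, the paired receptors, at r = 0.80 (permutation p = 0.0026, adjusted 0.0309) and rho = 0.76 (permutation p = 0.00591, adjusted 0.057), and Per3 with Dbp at r = 0.76 (permutation p = 0.00275, adjusted 0.0309) and rho = 0.85 (permutation p = 0.00072, adjusted 0.0162). These were the 6 of 45 pairs past an adjusted p of 0.05 by Pearson's r, and 13 had an unadjusted p under 0.05. Other known targets were less opposed to Arntl, with r = -0.53 for Per2, -0.30 for Cry2 and 0.15 for Cry1, all outside those 6 pairs. Nr1d2 with Dbp stood at r = 0.72, Per1 with Nr1d2 at 0.71 and Cry1 with Nr1d1 at -0.70, each with an adjusted permutation p of 0.0509. Arntl with Nr1d1 stood at -0.47 (adjusted permutation p = 0.255). Without the 2 libraries farthest from the median of the first gene named, these came to 0.39 for Nr1d2 with Dbp (control replicate 4 and CAL_Dll4i replicate 1 left out), 0.71 for Per1 with Nr1d2, -0.59 for Cry1 with Nr1d1 and -0.02 for Arntl with Nr1d1 (the same 2 left out as for Nr1d2 with Dbp). The values of Nr1d2 with Dbp and of Arntl with Nr1d1 thus rest on those 2 libraries.

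The signs of these 6 pairs held in each subset of libraries examined, while the number of pairs past the threshold did not. Without CAL_Dll4i replicate 1 and control replicate 4, the 2 libraries farthest from the median of Arntl, r was -0.71 with Nr1d2, -0.61 with Dbp, -0.79 with Per3 and -0.68 with Per1. Leaving out 1 library at a time, r ran from -0.902 to -0.809 for Arntl with Nr1d2 and from -0.896 to -0.751 for Arntl with Dbp. The count of pairs past the threshold fell from 6 to 0 without control replicate 1, control replicate 4, CAL replicate 3, CAL_Dll4i replicate 1 or CAL_Dll4i replicate 2, to 2 without control replicate 2, and was 5 to 9 without any 1 of the other 6. Within groups, after removing group means and permuting within groups only, Arntl with Nr1d2 stood at r = -0.91 (exact permutation p = 0.000868, adjusted 0.0391) and was the 1 pair past the threshold. Arntl with Dbp then stood at -0.79 and Nr1d2 with Dbp at 0.81 (adjusted exact permutation p = 0.0911 for both).

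The tissue makeup of the libraries also varied, and the correlations were recomputed in 3 ways, each setting aside a single part of it. Over the 9 libraries without muscle RNA, Arntl stood at r = -0.92 with Nr1d2 and -0.93 with Dbp (exact permutation p adjusted to 0.00914 for both). With group means and the keratinocyte list's level removed, r was -0.90 with Nr1d2, -0.75 with Dbp and -0.88 with Per3, and with the adipocyte list's level removed in its place r was -0.92, -0.74 and -0.80. Levels of the other marker lists, such as neutrophil, were not removed, so their part in the correlations was not tested. The hour of collection was not tested, since the labels give none.

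**Figure D3:**
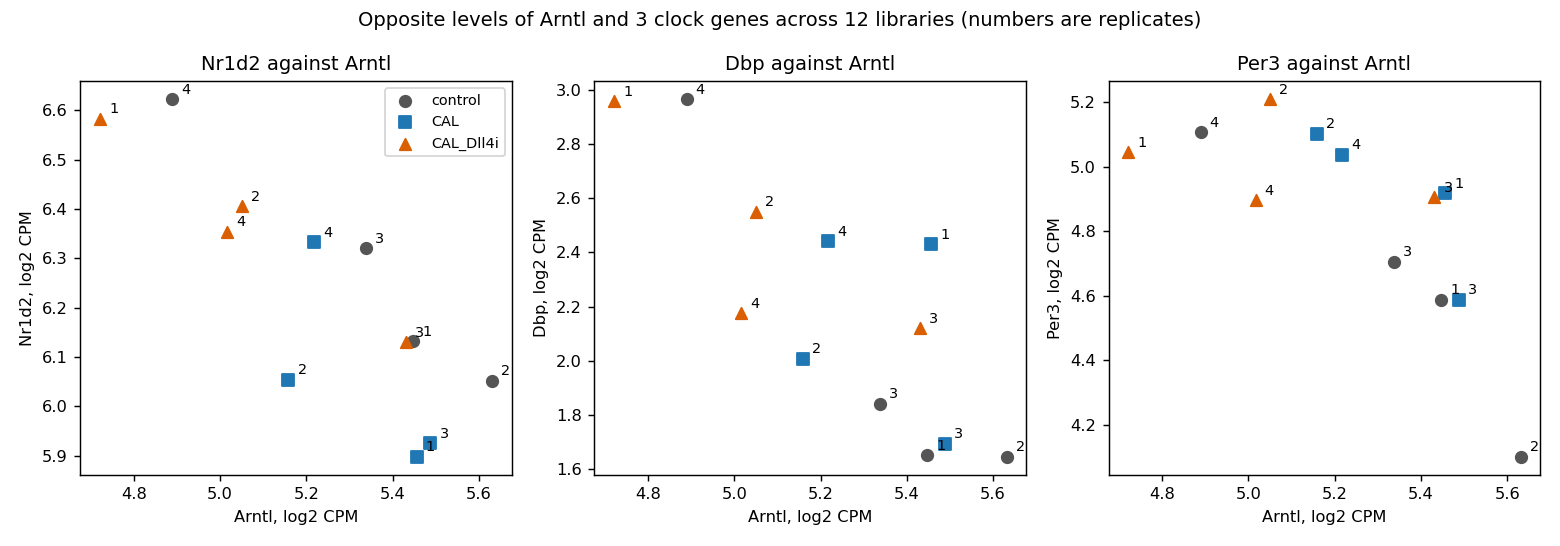
Log2 CPM of Nr1d2, Dbp and Per3 (vertical axes) against log2 CPM of Arntl (horizontal axes) in 12 libraries, with replicate numbers beside the points and a symbol for each group. In all 3 panels the points fall from upper left to lower right (r = -0.85, -0.82 and -0.74), and control replicate 4 lies beside CAL_Dll4i replicate 1 at the low-Arntl end.

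The log2 ratio of Dbp to Arntl puts the libraries in order with no dependence on library scaling. It stood at -3.80, -3.99, -3.50 and -1.93 in control replicates 1 to 4, at -3.03, -3.16, -3.80 and -2.78 in CAL, and at -1.77, -2.50, -3.32 and -2.84 in CAL_Dll4i. The groups overlapped. Control replicates 1, 2 and 3 were among the 4 lowest libraries, with CAL replicate 3, while control replicate 4 was the second highest. Group means were -3.31 ± 0.94 in control, -3.19 ± 0.43 in CAL and -2.61 ± 0.65 in CAL_Dll4i (SD, n = 4 each), a description with no test. The mean of CAL_Dll4i minus that of control was 0.70, and 1.16 without control replicate 4, which left control at -3.77 ± 0.25 (SD, n = 3). Without CAL_Dll4i replicate 1 it was 0.42. CAL_Dll4i minus CAL was 0.58, 0.30 without CAL_Dll4i replicate 1 and 0.38 without CAL replicate 3. CAL minus control was 0.11 and changed sign with 1 library left out (-0.12 without control replicate 2, -0.05 without control replicate 1 and -0.02 without CAL replicate 4), and was 0.57 without control replicate 4 and 0.32 without CAL replicate 3. Between the highest and the lowest library the ratio differed by 2.23 on the log2 scale. The 2 highest ratios, in CAL_Dll4i replicate 1 and control replicate 4, were in the 2 libraries with the most keratinocyte RNA (476 and 249 CPM). Control replicate 4 also had the lowest adipocyte marker level (956 CPM) and the highest neutrophil marker level (427 CPM, against 116 to 313 CPM elsewhere). The order did not follow these levels in every library. Control replicate 2, with the lowest ratio, held 142 CPM of keratinocyte and 313 CPM of neutrophil markers. CAL_Dll4i replicate 4 held 216 CPM of keratinocyte markers at a ratio of -2.84. The part of keratinocyte or neutrophil RNA in the ratio was not tested.

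The peaks of the other genes did not all fall in the same libraries. Nr1d1 was highest in CAL_Dll4i replicate 1, Nr1d2 and Dbp in control replicate 4, Per1 in CAL_Dll4i replicate 4, Per3 and Cry2 in CAL_Dll4i replicate 2, Per2 and Cry1 in CAL replicate 2, and Arntl in control replicate 2. In CAL replicate 2 the high Per2 (31.9 CPM) and Cry1 (31.2 CPM) stood beside the lowest Nr1d1 of all 12 libraries (12.8 CPM). In CAL_Dll4i replicate 4 the highest Per1 (61.1 CPM) stood beside the highest Klf9 (17.6 CPM) and Tsc22d3 (45.4 CPM), from a list of 9 glucocorticoid response genes. The summed level of that list was also highest there, at 540 CPM. Of its other members, Fkbp5 and Zbtb16 were highest in a CAL library, Sgk1, Mt1, Mt2 and Errfi1 in a control library, and Pdk4 in a CAL_Dll4i library. The part of these genes in the Per1 level was not tested.

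**Figure D4:**
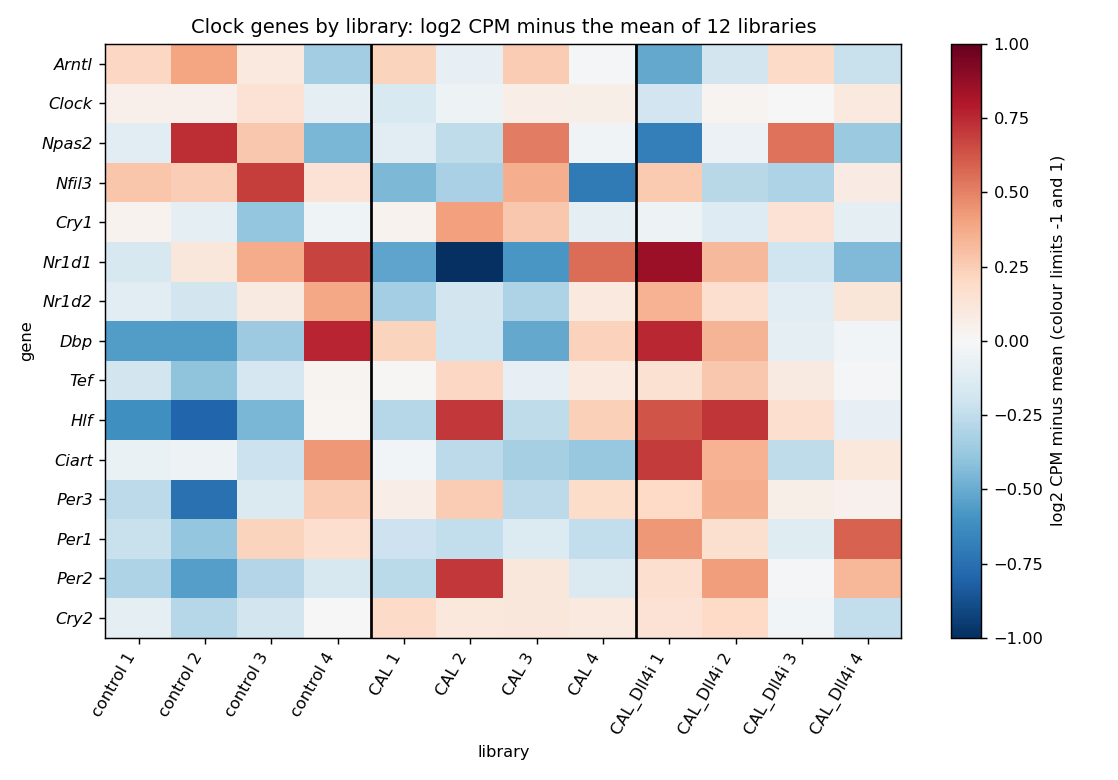
Colour map of log2 CPM minus the mean of 12 libraries for 15 clock genes (rows) in each library (columns, groups divided by black lines). Red is above and blue below the mean, with colours limited at -1 and 1. Control replicate 4 and CAL_Dll4i replicate 1 show blue Arntl and Npas2 beside red Nr1d1, Nr1d2, Dbp and Ciart, and control replicate 2 shows red Arntl and Npas2 beside blue Nr1d2 and Dbp.

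Across all genes tested, the gene most like Arntl was another clock activator. Likeness was Pearson's r over the 12 libraries' deviations from group means, and is a description over libraries that share their scaling. Npas2, which can take the place of CLOCK beside ARNTL, ranked first of 18550 genes at r = 0.88. It stood at 14.5, 26.2, 18.9 and 11.4 CPM in control, at 14.5, 13.1, 22.4 and 15.3 CPM in CAL, and at 9.78, 15.1, 22.9 and 12.1 CPM in CAL_Dll4i. Npas2 was thus lowest in CAL_Dll4i replicate 1 and control replicate 4, as Arntl was. The next 7 were Gm3617, LOC115487945, Mib2, Ank1, Mir7009, Ric8b and Mir100hg, at r = 0.83 to 0.87.

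Nr1d2 was the second lowest of all genes in its likeness to Arntl, at r = -0.91. The others of the lowest 8 were Cdca3 (-0.92), Ceacam1 (-0.91), Aldh3a1, Aaas, Kif20a, Cdkn3 and Aldh9a1, of which Cdca3, Kif20a and Cdkn3 are cell division genes. Of the 9 other clock genes, 5 lay below -0.5 (Nr1d2, Dbp, Per3, Per1 and, at -0.51, Nr1d1) and 0 above 0.5, where 4.88% of all genes lay below -0.5 and 5.29% above 0.5. For Nr1d1 the pooled r with Arntl, -0.47, came to -0.02 without control replicate 4 and CAL_Dll4i replicate 1. Genes of the wider clock list with the same sign were Wee1, a cell cycle kinase driven by the clock (-0.79), Ciart, a repressor of ARNTL and CLOCK (-0.73), and Hlf and Tef, the relatives of Dbp (-0.73 and -0.69).

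For Dbp the most alike genes included M1ap, Fyb2, Zdhhc4, Snora78, Serpina1a, LOC115487276 and Xkr5 (r = 0.86 to 0.92), and the most opposite were Gm9701, Mib2, Npepps, Chchd10, LOC115489545, Gpr85, Fbf1 and Comp (-0.94 to -0.86). Several of these, such as M1ap at 0.671 CPM, are near the lower end of detection. None is a clock gene, but 4 of the 9 other members lay above 0.5 (Nr1d2 at 0.81, Per3 at 0.74, Nr1d1 at 0.70 and Cry2 at 0.62), where 5.03% of all genes did, and 2 lay below -0.5 (Arntl at -0.79 and Clock at -0.69), where 5.41% did. Per1, Per2 and Cry1 lay between, at 0.40, 0.00 and -0.26. Ciart stood at 0.78, Tef at 0.65 and Npas2 at -0.69.

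**Figure D5:**
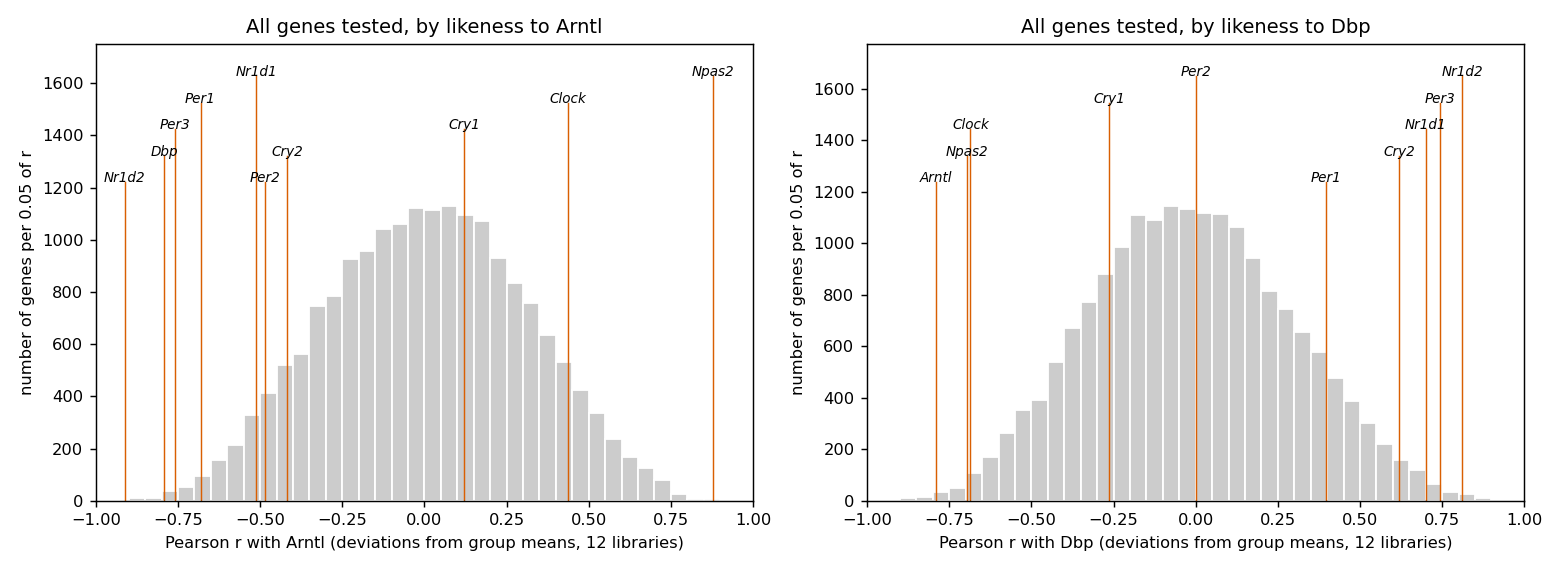
Number of genes (bars, 0.05 of r each) by Pearson r with Arntl (left) or Dbp (right) over deviations from group means in 12 libraries, for all 18550 other genes tested. Orange lines mark the clock genes and Npas2, and their height carries no value. Npas2 stands at the right edge and Nr1d2, Dbp and Per3 at the left edge of the Arntl panel, while Nr1d2 and Per3 stand at the right edge of the Dbp panel.

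The other genes of the pathway were described from fixed lists by role, and none of their members passed edgeR's adjusted threshold in any comparison. Of the 5 further activators and nuclear receptors, 1 had an unadjusted p under 0.05, Rora, an activator of Arntl, at a log2 fold change of 0.11 ± 0.04 in CAL_Dll4i against control, where 3.86% of all genes were higher and 3.06% lower at that threshold. Of the 6 further repressors and output factors, Tef stood at 0.30 ± 0.10 and Hlf at 0.83 ± 0.28 in CAL_Dll4i against control (edgeR adjusted p 0.71 for both). Tef ran from 17.8 to 23.9 CPM in control and from 23.2 to 28.3 CPM in CAL_Dll4i, and Hlf from 0.626 to 1.11 CPM and from 1.03 to 1.81 CPM, so that both overlapped slightly. Nfil3, which represses the targets of DBP, stood at -0.58 ± 0.22 in CAL against control (adjusted p 0.28), with 24.0 to 34.9 CPM in control and 13.3 to 27.9 CPM in CAL. Ciart stood at 0.51 ± 0.20 in CAL_Dll4i against CAL (edgeR adjusted p 0.66).

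Of the 8 kinases and ubiquitin factors that set the life of PER and CRY proteins, 2 had an unadjusted p under 0.05, both in CAL_Dll4i against CAL, where 4.47% of all genes were higher and 2.95% lower at that threshold. The deubiquitinase Usp2 stood at 0.45 ± 0.18 and the kinase Csnk1e at 0.16 ± 0.07 (edgeR adjusted p 0.66 for both). Of the 5 clock output genes Wee1 stood at 0.21 ± 0.08 in CAL against control, with 20.3 to 24.9 CPM in control and 24.4 to 29.5 CPM in CAL. Per1 itself responds to glucocorticoids. Among 9 glucocorticoid response genes, Klf9 stood at 0.29 ± 0.09 in CAL_Dll4i against control, where its groups nearly touched (13.7 to 17.6 CPM against 11.3 to 13.7 CPM), and Zbtb16 at 0.81 ± 0.30 in CAL against control. The edgeR adjusted p was 0.29 for Wee1, 0.71 for Klf9 and 0.26 for Zbtb16. Among 16 immediate early genes, which respond to handling and stress and can induce Per1, 0 had an unadjusted p under 0.05 in any comparison. Of all genes, 7.01% were higher and 7.57% lower at that threshold in CAL against control. In CAL_Dll4i against control 3.86% were higher and 3.06% lower, so a count of 0 among 16 genes says little. The summed level of the 16 was highest in control replicate 3 (729 CPM) and CAL_Dll4i replicate 1 (703 CPM), against 469 to 592 CPM in the other 10 libraries.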

How the data were processed

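RNA-seq was made from 12 fat graft libraries with a SureSelectXT RNA Direct kit, per the labels' protocols. Reads were handled with HISAT2 and StringTie on mm10, per the submitters' processing notes, without versions. The deposited estimated counts are whole numbers that the authors left unscaled. The deposited FPKM were scaled by the authors for length and library size, per the file headers, and were used here to order genes by level. The deposited TPM, likewise from the authors, served as a check on the Dbp to Arntl ratio. No source used here says how low values were treated.

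Counts were scaled by TMM and filtered with filterByExpr in edgeR 4.0.16 (R 4.3.3). edgeR's robust quasi-likelihood test was fitted with 1 coefficient per group on all 12 libraries, and p-values were adjusted by Benjamini-Hochberg over 18551 genes. Log2 CPM used a prior count of 1. Correlations used 100000 permutations over libraries, or all 13824 arrangements within groups, or all 362880 of 9 libraries. The code was tested on simulated data. Adjusted p-values for 45 pairs cover those pairs alone.

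The 10 genes, the other lists and the tests were chosen with earlier results of these data known. Named genes are the 10, at most 4 by smallest p from each other clock, glucocorticoid and immediate early list, and the 8 genes most and least like Arntl and Dbp, of which 1 is not reported here. Marker lists also covered endothelial, macrophage, neutrophil, fibroblast and T and B cells. Their summed levels ran, over all libraries, from 256 to 435 CPM, 4106 to 4858 CPM, 116 to 427 CPM, 4741 to 6581 CPM and 63.0 to 310.2 CPM. Alternatives were other scalings, filters and tools (DESeq2 1.42.0, and voom in limma 3.58.1), fits of only 2 groups, a replicate block, libraries left out and marker levels as covariates. Promoter windows and positions come from RefSeq tables of GRCm38.p6. Figures were drawn with matplotlib 3.10.9 in Python 3.11.15.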

Additional observations from a re-analysis of the deposited data

Results flagged for a closer look

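Among 102 groups of 4 libraries, for the clock genes and 24 others named from the lists, 5 held a library whose gap to its nearest neighbour exceeded Dixon's 95% critical share of the group's range, and chance alone sets apart about 1 in 20 groups. Of 30 groups of the 10 clock genes, 2 did so. Dbp stood at 7.80 CPM in control replicate 4, against 3.11 to 3.57 CPM in the other controls. Cry2 stood at 19.1 CPM in CAL replicate 1, against 18.0 to 18.1 CPM in the other 3, a gap that is small in size. The remaining 3 were in other genes. Klf10 stood at 52.5 CPM in CAL replicate 1 (others 67.1 to 68.9), Klf9 at 12.9 CPM in CAL replicate 3 (others 14.4 to 14.6), and Nr4a1, an immediate early gene, at 49.7 CPM in control replicate 3 (others 18.2 to 21.1).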

How the results depend on the processing

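Over 570 recalculated fold changes of the 10 clock genes under 23 other settings, 0 passed an adjusted p of 0.05, and the smallest was 0.128 (Cry2, CAL against control, DESeq2). Direction held in 323 of 330 values under settings other than leaving out 1 library. The 7 exceptions all lay near 0. With only the compared groups fitted, Clock stood at -0.0017 in CAL_Dll4i against CAL. Without the 3 libraries with muscle RNA it stood at -0.0798 there and at 0.0197 in CAL against control, where Arntl stood at 0.0077 and Dbp at -0.0300, and Nr1d1 stood at 0.0538 in CAL_Dll4i against control. With the adipocyte level as a covariate, Per2 stood at -0.0226 in CAL_Dll4i against CAL.

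Leaving out 1 library kept the direction in 220 of 240 values. The ranges that crossed 0 were, in CAL against control, -0.140 to 0.0929 for Arntl and -0.103 to 0.460 for Dbp. In CAL_Dll4i against CAL they were -0.0408 to 0.0555 for Clock, -0.0339 to 0.326 for Per2 and -0.0013 to 0.16 for Per3, and in CAL_Dll4i against control -0.35 to 0.11 for Nr1d1.

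Over all genes, calls in CAL against control went from 1 to 616 by DESeq2, 72 by voom, 5 with the keratinocyte level as a covariate, and 0 with only the compared groups, without the muscle libraries or with the adipocyte level as a covariate. The cause was not tested. DESeq2 called 1 gene in CAL_Dll4i against CAL and 61 in CAL_Dll4i against control. With 1 library left out, calls in CAL against control ran from 0 to 6, calls in the joint test of the 3 groups from 0 to 1, and pairs of clock genes past the threshold from 0 to 9. After removal of group means, with permutation within groups only, 1 pair passed in place of 6. With group means and a marker list's level removed and libraries permuted freely, 8 pairs passed for the adipocyte list and 7 for the keratinocyte list. Free permutation treats values with fitted levels removed as independent libraries, which can make p-values too small. The counts of 8 and 7 are therefore not comparable with the 1 from permutation within groups. The cause of the other differences was not tested. The difference in the Dbp to Arntl ratio with 1 library left out ran from -0.115 to 0.573 for CAL minus control, and kept its sign in the other 2 comparisons.

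Replicate numbers did not pair the libraries: same-numbered libraries correlated at -0.381 to 0.142 in their deviations, and 0 of 12 correlated best with their own number. With the replicate number as a block, 1, 0 and 0 genes were called in the 3 comparisons and 0 clock genes. Covariates, the leave-one-out correlations and ratios, and removal of marker levels from the correlations were chosen after seeing the data, except the adipocyte covariate. With 4 libraries a group, the 95% interval in CAL against control ran from -1.36 to 0.26 for Nr1d1 and from -0.66 to 0.72 for Dbp.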
